A study of Drosophila melanogaster with 2 samples.

Results

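The regions described here are 2907 weak peaks of Sry-delta chromatin immunoprecipitation that lay away from protein-coding start sites and were found in both embryo replicates. Sry-delta, the product of serendipity delta, is a zinc finger protein of Drosophila melanogaster. ChIP-seq, in which DNA fragments precipitated with a protein are sequenced, was done on whole embryos of pooled sexes aged 0 to 24 hours. They came from a transgenic line, Sry-delta-GFP, that stably expresses the protein with GFP at its C-terminus, and an antibody against GFP was used. The 2 libraries are labelled biological replicates 3 and 4 and form 1 group. The labels give neither the promoter that drives the transgene nor the state of the untagged gene, and no input or untagged library was analysed here. A whole embryo of these ages mixes all tissues and stages, so a peak in few cells and a weakly occupied peak in many cells cannot be told apart.

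The members were chosen by deposited values in 4 steps, starting from the 30000 peaks called on both libraries pooled. Of these, 29584 lay on 5 arms (X, 2L, 2R, 3L and 3R). Of them, 21744 overlapped no peak of the optimal list, the authors' set of 6318 peaks filtered for reproducible rank. A total of 17281 had a summit more than 500 bp from every protein-coding start. The 2907 members also overlapped, by at least 1 bp, a peak among the 15000 highest signals of each replicate. The other 14374 weak distal peaks, called not shared, and the 1513 optimal peaks more than 500 bp from coding starts, called distal optimal peaks, were the groups used for comparison. Signal, its rank, sharing and distance over 500 bp were therefore fixed by the choice and are only described, whereas sequence and the kind of annotated feature were not used by it.

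Sry-delta carries a ZAD domain, through which insect zinc finger proteins of this family form dimers, and a row of C2H2 zinc fingers that contact DNA. It is known for activating bicoid in the mother's germ line. Peaks far from coding starts can hold enhancers, insulators or starts of unannotated transcripts, and a peak in ChIP-seq can also arise where the protein is held by other DNA-bound proteins. None of these was measured here.

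The DNA at the summits is shown for 7 members, in Release 6 coordinates (dm6), on the plus strand and 5′ to 3′, taken from the RefSeq genome sequence. The first was the highest of all members and holds a Forkhead match (TGTTTAC on either strand), the next 3 were the next highest among those whose sequence is printed, and beat-IIIc also holds the 7-mer CACTGAG. Capitals mark these matches, or the summit base in CG44869 and ft, which are shown for their signal.
CG10283, chr2L:18477498-18477598: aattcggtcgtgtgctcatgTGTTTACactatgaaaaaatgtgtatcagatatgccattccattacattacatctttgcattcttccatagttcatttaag
CG44869, chr2L:15416343-15416443: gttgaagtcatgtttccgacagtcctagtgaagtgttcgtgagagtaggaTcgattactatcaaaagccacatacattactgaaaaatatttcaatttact
beat-IIIc, chr2L:17243513-17243613: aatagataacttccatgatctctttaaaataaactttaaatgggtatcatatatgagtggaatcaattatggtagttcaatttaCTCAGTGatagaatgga
ft, chr2L:4224282-4224382: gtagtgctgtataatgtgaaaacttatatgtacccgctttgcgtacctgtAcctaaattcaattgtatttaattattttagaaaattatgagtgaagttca
The next 2 show the 7-mers CAGTGTA and CAGTGCA in capitals, on which the sequence results turn. At Dph4 the site reads on the plus strand to the right of the summit, and at Lerp it reads on the minus strand to its left.
Dph4, chr3R:5620736-5620836: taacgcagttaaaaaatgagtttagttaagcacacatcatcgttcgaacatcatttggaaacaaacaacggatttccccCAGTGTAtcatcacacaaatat
Lerp, chr3R:26859328-26859428: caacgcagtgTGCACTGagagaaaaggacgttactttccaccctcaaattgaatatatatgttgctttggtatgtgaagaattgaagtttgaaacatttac
The last shows a match (TATCGATA) to the DRE, an element named for genes of DNA replication and known to be bound by DREF, at the member of highest signal that held it. Its summit lies in a 3' UTR, so 30 bases are shown.
Ppm1, chr3L:580077-580106: acttgataagcTATCGATActagtgttaga

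Signal is the authors' value for each peak, with no stated unit and on a scale of its own in each list. In the pooled list it ran from 18.2 to 99.8 with a median of 54.4, directly under the lowest optimal signal on these arms (99.8119 against 99.8049 for the highest member), and no pooled peak off the optimal list was above that lowest optimal signal. In replicate 3 it ran from 19.4 to 89.5 with a median of 27.2, and in replicate 4 from 22.4 to 109 with a median of 36.5. The rank limits lay at 19.3593 in replicate 3 (19.356 at the next rank) and 22.3979 in replicate 4 (22.3972 at the next). The 119 members at replicate 3 ranks just inside the limit had a median pooled signal of 43.0, and the 116 weak distal peaks just outside it had 44.7. In replicate 4 the same medians were 43.4 for 95 members and 40.3 for 83 peaks outside, so the medians on both sides of each limit were close. At the distance limit, 97 members lay 501 to 600 bp from a coding start (median signal 47.2), and 124 weak shared peaks lay 401 to 500 bp from one (median 50.8).

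The replicates gave different orders of signal among the members. Spearman's rho between the replicate signals was 0.152 across the 2907 members, which are not independent and were cut to a narrow range by the choice. The number was higher in replicate 4 at 2222 members (76.4%), although each list has its own scale, with a median log2 ratio of replicate 4 over replicate 3 of 0.36 and an SD of 0.56. The summits called in the replicates lay a median of 77 bp apart, and 57.3% lay within 100 bp of each other. At 1505 distal optimal peaks found in both replicates the median was 26 bp and the share 91.5%. Summit positions were therefore farther apart between libraries at the members, and whether the choice by signal sets this was not tested.

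**Figure D1:**
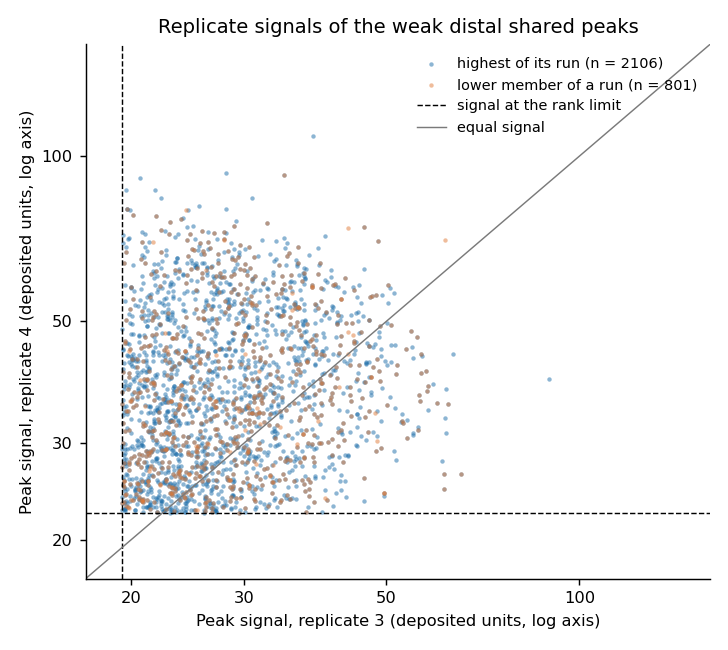
Deposited peak signal of each member in replicate 3 (x axis) and replicate 4 (y axis), both on log axes, with the signals at the rank limits dashed and the line of equal signal in grey. Most points lie towards the limits, with upper quartiles of 33.9 in replicate 3 and 47.8 in replicate 4 (Spearman's rho 0.152). Of the 2907 points, 2222 lie above the grey line, and lower members of a run often share the point of the highest one.

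The 2907 members were not 2907 separate places. They overlapped 2128 distinct peaks of replicate 3 and 2127 of replicate 4, and their own intervals, 484 bp wide in 2873 cases, formed 2106 runs of overlapping members. Of these runs, 1334 held 1 member, 744 held 2, 27 held 3 and 1 held 4. The 801 members below the highest of their run had a median pooled signal of 31.3, against 62.9 for the 2106 highest, and the median ratio within a run was 0.538. Of the 801, 714 (89.1%) lay to the right of the highest summit in genome coordinates, at a median distance of 213 bp with quartiles of 203 and 259 bp. In 769 cases the lower and the highest member had the same peak of replicate 3, and in 774 the same peak of replicate 4. Another 74 members overlapped a pooled peak of higher signal that was not a member. What places these summits to the right was not tested. Counts below are of members, with the value for the 2106 highest, an alternative chosen after seeing the data, where it changes a call.

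**Figure D2:**
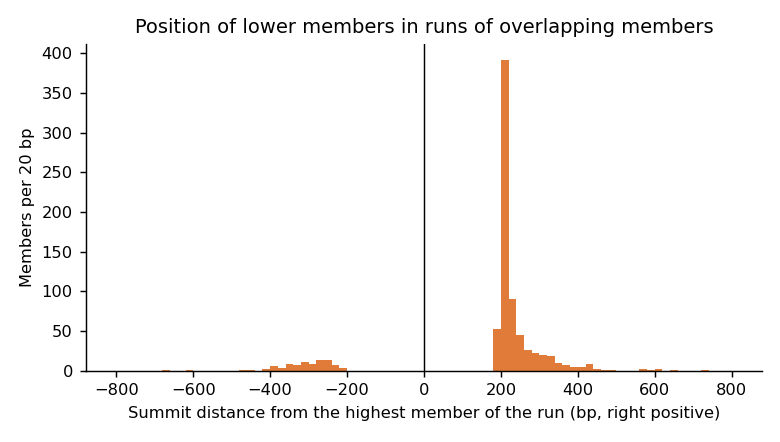
Distance in bp from the highest summit of a run to each of its 801 lower members (x axis, right in genome coordinates positive), as a count per 20 bp (y axis). The counts stand in a narrow column about 200 bp to the right, where 714 of 801 lie on that side, with a low, broad group to the left.

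Most members lay in introns. Introns of coding genes held 1847 members (63.5%, exact Clopper-Pearson 95% interval 61.8% to 65.3%), while they make up 44.4% of the bases more than 500 bp from coding starts. Sequence outside annotated genes held 646 (22.2%, interval 20.7% to 23.8%) against 31.7% of bases. Coding exons held 124 (4.27%, interval 3.56% to 5.06%) against 15.9% of bases. Non-coding genes held 4.23%, 3' UTRs 3.96% and 5' UTRs 1.79% of members. Annotated transposable elements held 18 members (0.619%), 0.487% of not shared peaks and 0.727% of distal optimal peaks, against 6.40% of bases. The not shared peaks had 54.3% in introns and 16.7% in coding exons, and the distal optimal peaks 62.1% and 1.39%, so on these 2 features the members lay nearer to the distal optimal peaks. Outside annotated genes the not shared peaks had 18.9% and the distal optimal peaks 28.9%, so there the members, at 22.2%, lay nearer to the not shared peaks. The intervals cover counting error only, treat overlapping members as separate, and were not turned into a test. Among the 2106 highest members the shares were 63.8% in introns and 3.94% in coding exons.

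**Figure D3:**
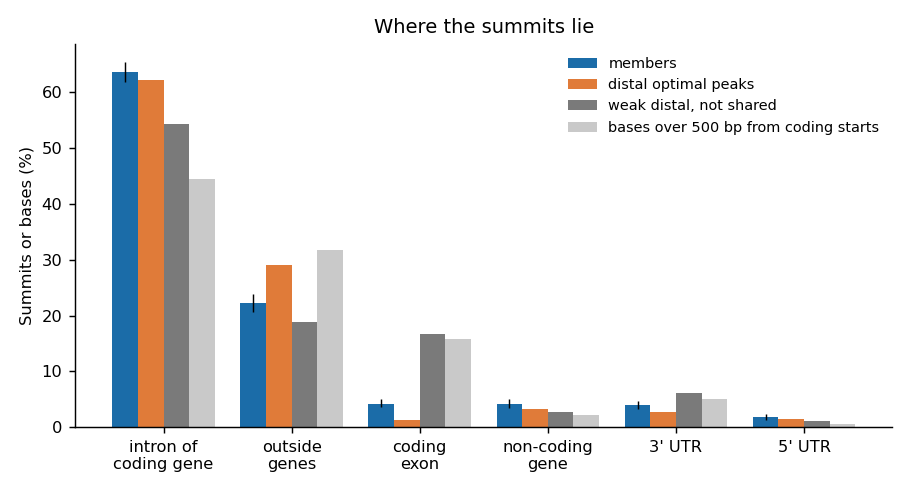
Percent of summits, or of bases more than 500 bp from coding starts, in each kind of annotated feature, with exact 95% intervals for the 2907 members. Introns hold 63.5% of members against 44.4% of bases, and coding exons hold 4.27% of members, 16.7% of not shared peaks and 15.9% of bases.

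The members were spread over all 5 arms. Their density ran from 22.3 per Mb on 3R to 26.5 on X, with 24.8 over all arms, where Mb counts bases over 500 bp from coding starts. The distal optimal peaks had 12.9 per Mb over all arms and 16.1 on X. The median distance to the nearest coding start was 2690 bp and the largest 86221 bp, and 449 members (15.4%) lay over 10000 bp away, as did 15.4% of the distal optimal and 15.2% of the not shared peaks. The members thus had about the same spread of distances as both other groups. A share of 38.1% lay upstream of the nearest coding start. A total of 337 members (11.6%) lay within 1000 bp of an optimal peak, against 11.2% of the not shared peaks.

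Some members lay at starts of genes that make no protein, which the choice did not exclude. Starts of annotated transcripts of any kind were within 500 bp of 188 members (6.47%), a share close to that of distal optimal peaks (6.48%) and above that of not shared peaks (3.70%), with no test of the difference. By type, 141 were at non-coding RNA genes, 31 at tRNA genes, 10 at snoRNA genes, 4 at pseudogenes and 2 at snRNA genes. At mir-34, a microRNA gene, the summit was 144 bp away and the signal 98.7 (40.2 in replicate 3 and 59.4 in replicate 4). At mir-279, a microRNA gene known for shaping olfactory neurons, it was 297 bp away with 85.7 (27.9 and 72.7). At the mir-275 start the distance was 486 bp and the signal 90.4 (29.5 and 62.3). All 3 microRNA genes had the higher value in replicate 4.

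The highest members, named by the nearest coding start, had close pooled signals and unlike replicate signals. CG10283 led with 99.8 (40.4 in replicate 3 and 59.1 in replicate 4), in an intron of that gene. The member of beat-IIIc, a gene of the beaten path immunoglobulin family, also lay in an intron, with 99.8 (39.3 and 63.3). At ft, which encodes the atypical cadherin Fat of the Hippo and planar polarity pathways, the member lay 2536 bp upstream of the start with 99.7 (43.1 and 59.9). In all 3, replicate 4 was higher. At Mnt, which encodes a Max-binding repressor, the order was the opposite, with 56.9 in replicate 3 and 43.3 in replicate 4. At kuk, which encodes the nuclear envelope protein Kugelkern, the replicates stood far apart, with 25.5 and 81.0. At Dad, an inhibitor of BMP signalling in the fly, they were 45.0 and 55.3, and at mbl, a splicing regulator, 36.3 and 52.6. For Gdh, which encodes glutamate dehydrogenase, they were 26.4 and 72.8, and for Pdk, which encodes pyruvate dehydrogenase kinase, 29.2 and 76.3. These high members were thus high in the pooled list, with the larger value in replicate 4 in all but CG1888 and Mnt among the 20 highest. Others of the 20 were CG46443, CG44869, ths, CG43192, CG3556, CG42327, CG3655, tara and Unc-76.

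The nearest start was often not that of the gene around the member. Of 2138 members inside a coding gene, 1724 lay in the gene with the nearest start and 414 in another. The CG43192 member, with a signal of 99.5, lay in an intron of arr, which encodes the Wnt co-receptor Arrow. The nearest start is therefore a name for a place and not a target.

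Some genes had many members. A coding start of 1412 of 13865 genes (10.2%) was nearest to at least 1 member, and 674 of these genes had 1 member. The gene tna, which encodes the trithorax group protein Tonalli, had 15 members in 10 runs with signals from 28.1 to 76.0, all 617 to 9854 bp from its start. At bun, which encodes a TSC22 family leucine zipper protein, there were 14 members in 9 runs with signals from 24.4 to 77.5. The nuclear receptor gene ftz-f1 had 12 in 8 runs, from 19.7 to 80.5. The gene hth, whose homeodomain protein acts with Hox proteins, had 11 in 9 runs, from 34.6 to 93.5. At ush, which encodes a GATA cofactor, there were 11 in 7 runs, from 21.7 to 92.8. The gene cic, whose HMG-box protein is a repressor lifted by Ras signalling, had 11 in 6 runs, and CG12362 had 11 in 7. The last 3 of the 10 were CG43658 with 10 in 8 runs, Myc, a growth regulator gene, with 10 in 8 runs, and tara with 10 in 5. These 10 genes had from 36.0 kb (tara) to 131.9 kb (hth) of sequence nearest to them, against a median of 3.17 kb over all coding genes. The values were 51.4 kb at ftz-f1, 48.0 at ush, 45.7 at tna and 79.3 at bun. Members per Mb of that sequence ran from 83.4 at hth to 328 at tna, against 24.8 over all coding genes, though the genes were picked for their counts. Not shared peaks ran from 10 at ftz-f1 to 53 at hth. The same 10 genes had from 0 distal optimal peaks, at CG12362, to 6, at Myc and at tara, with 4 at tna, 2 at bun, 1 at ftz-f1 and 5 at ush.

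Gene lists were compared by runs of members per Mb of sequence nearest to their genes, which allows for that space, beside 17.95 per Mb over all coding genes. The lists were not tested. Several patterning and signalling lists stood above the value for all genes. Pair-rule genes, which divide the embryo into stripes, had 14 runs (46.6 per Mb), of which 8 were at ftz-f1 and 4 at hry, the gene hairy. Segment polarity genes, which pattern each segment, had 13 (31.3 per Mb), with members at 7 of 17 genes. At ptc, the Hedgehog receptor gene, the highest had a signal of 84.2 (39.7 in replicate 3 and 43.2 in replicate 4). Among dorsoventral and BMP genes, 9 of 21 had members, in 16 runs (36.1 per Mb). Their highest were at ush with 92.8 (41.9 and 52.0), and at shn, a zinc finger cofactor of BMP signalling, with 89.1 (28.6 and 53.6).

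Targets and parts of the EGFR and Notch pathways had 12 runs (38.6 per Mb), and the receptor gene Egfr had the highest signal of them, 98.3 (30.1 in replicate 3 and 67.8 in replicate 4). Hox cluster genes had members at 6 of 12 genes, in 10 runs (22.7 per Mb). Of these, 7 members in 4 runs were at lab, the most anterior Hox gene, where the highest had 96.6 (35.5 and 60.9). Nuclear receptor and ecdysone genes had 19 runs (30.7 per Mb), with EcR, the ecdysone receptor gene, at 91.2 (31.0 and 56.6). Polycomb and trithorax genes had 9 runs (61.1 per Mb), with Su(z)2 at 98.2 (41.6 and 58.0). Gut, blood and fat body genes had 11 runs (38.1 per Mb), of which 7 were at ush, which stands in 2 lists. In each of these named members replicate 4 was higher.

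The remaining patterning and tissue lists lay on both sides of the value for all genes. Eye and appendage genes had 26.9 runs per Mb, with hth at 93.5. Tracheal and epidermal genes had 26.8, with members at 8 of 14 genes, among them sim, the midline regulator gene, at 96.9. Neurogenesis genes had 20.8 and axon and synapse genes 19.8, with members at 12 of 29 genes, among them Sema1a, which encodes an axon guidance semaphorin, at 98.7. Gap genes had 15.1 (4 runs, with 2 at kni), insulator and architectural genes 14.2 (3 runs) and mesoderm and muscle genes 13.3 (5 runs).

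The odorant receptor, cuticle protein, ribosomal protein and housekeeping lists stood at both ends. Odorant receptor genes had 2 runs (3.36 per Mb), cuticle protein genes 3 (9.29 per Mb) and ribosomal protein genes 6 (12.4 per Mb). The housekeeping list had 5 runs in 0.0646 Mb (77.5 per Mb), of which 3 were at Act5C, an actin gene. Many of these values rested on 1 gene. Without the gene holding most runs, pair-rule genes had 24.1 runs per Mb (without ftz-f1), dorsoventral and BMP genes 22.8 (without ush), nuclear receptor and ecdysone genes 19.4 (without ftz-f1) and the housekeeping list 37.4 (without Act5C), all still above the value for all genes. By contrast, Hox cluster genes had 14.2 (without lab), gut, blood and fat body genes 16.6 (without ush) and eye and appendage genes 16.8 (without hth), which lay below it. Neurogenesis genes, with 15.5 (without brat), and axon and synapse genes, with 16.6 (without sli), also went from above it to below it. Gap genes had 8.77 (without kni), mesoderm and muscle genes 8.82 (without Mef2) and odorant receptor genes 1.91 (without Or67d). Polycomb and trithorax genes had 49.2 (without Su(z)2), segment polarity genes 25.5 (without nkd) and the EGFR and Notch list 31.5 (without aop).

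**Figure D4:**
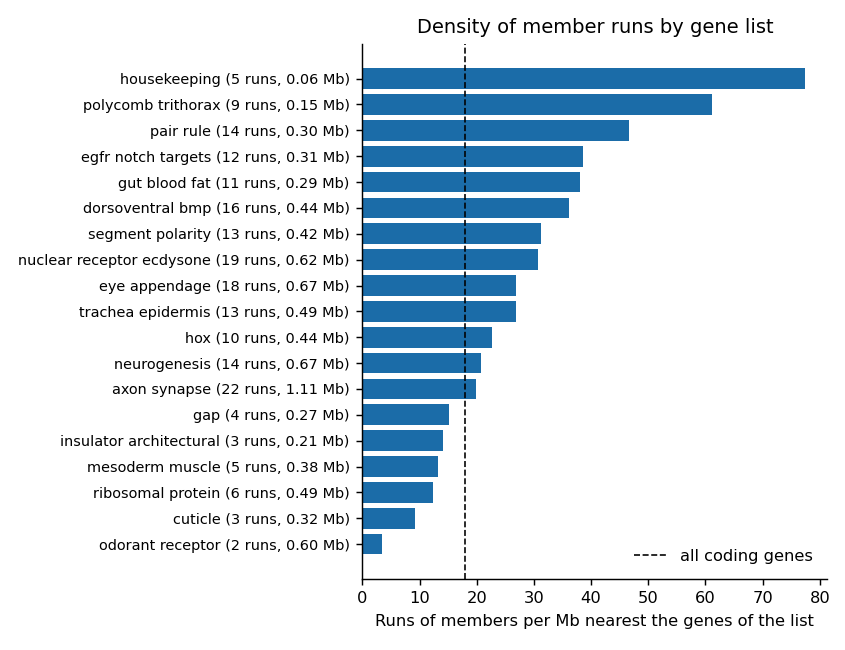
Runs of overlapping members per Mb of sequence nearest to the genes of each list (x axis), with the number of runs and the Mb behind each bar and the value for all coding genes (17.95 per Mb) dashed. Bars run from 3.36 for odorant receptor genes to 77.5 for housekeeping genes, which rests on 5 runs.

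A panel of 28 known motifs was sought within 100 bp of each summit and in windows of the same width centred 500 bp to each side. The test was a two-sided exact McNemar test against the right-hand window with Benjamini-Hochberg adjustment over the panel. It called 2 of 28 motifs higher (7.14% of the panel) and 2 lower (7.14%). Forkhead matches were in 207 members (7.12%) at the summit and 4.32% in the flanks, a ratio of 1.65 (exact McNemar adjusted p = 1.41e-05). Forkhead proteins are winged helix factors, among them Fkh of the gut and the Slp proteins of the segments. The DRE was in 36 members (1.24%) against 0.447% in the flanks, a ratio of 2.77 (exact McNemar adjusted p = 0.000587). The DRE is known from promoters of genes active in every cell. Both motifs were also called among the 2106 highest members, at 7.93% and 1.47%, while the 801 lower ones had 4.99% and 0.624%. Against the left-hand window Forkhead was called (exact McNemar adjusted p = 0.000461) and the DRE was not (exact McNemar adjusted p = 0.0768), and with the 10000 highest peaks per replicate, which left 883 members, neither was.

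The motifs called lower were rich in A and T. The homeodomain site TAATTA was in 11.8% of summits and 14.1% of flanks (exact McNemar adjusted p = 0.00602), and the TATA box, TATAAA, in 23.5% and 25.7% (exact McNemar adjusted p = 0.0374). Neither was called among the 2106 highest members (exact McNemar adjusted p = 0.0637 and 0.530) or against the left-hand window (0.488 and 0.788). Median GC content was 39.6% at the summits and 40.1% in the flanks. Distal optimal peaks had 35.6% at the summits.

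The consensus that Sry-delta binds in vitro was not called among the 2907 members. With at most 2 mismatches it was in 76 members (2.61%, exact Clopper-Pearson 95% interval 2.07% to 3.26%) and 1.77% of flanks (exact McNemar adjusted p = 0.404). It was called higher without replicate 3, a setting with 6247 members (2.50% of summits and 1.81% of flanks, exact McNemar adjusted p = 0.0455). The perfect consensus was in 0 of 2907 members and in 2 of 1513 distal optimal peaks. With at most 1 mismatch, 12 members (0.413%) had it against a mean of 0.0688% of flanks. A match to Zelda's site CAGGTAG, which marks enhancers opened early in the embryo, was in 1.31% of summits and 1.26% of flanks. Sites of other embryonic regulators were not called among the 2907 members either, against the right-hand window at 500 bp. The exact McNemar adjusted p was 0.646 for the Twist E-box, 0.496 for the site of Serpent and related zinc finger factors (AGATAAG), and 1 for both Grainyhead (AACCGGTT) and Stat92E (TTCNNNGAA). Other settings called further motifs. The Twist E-box was higher without replicate 4 (exact McNemar adjusted p = 0.0344). GGATTA, the Bicoid and Otd site, was lower with flanks at 1000 bp (exact McNemar adjusted p = 0.0239). The core of the Su(Hw) site, TGCATACTT, was higher with those flanks (exact McNemar adjusted p = 0.0239), against the left-hand window (0.00435) and without replicate 3 (0.0445).

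The members and the distal optimal peaks differed in 9 motifs. Two-sided Fisher exact tests with adjustment over the panel called 5 of 28 motifs higher in members (17.9% of the panel) and 4 lower (14.3%). The DRE was in 1.24% of members and 3.77% of distal optimal peaks (odds ratio 0.320, Fisher exact adjusted p = 2.71e-06). The CTCF core AGGTGGCG was in 0.894% and 2.45% (odds ratio 0.360, Fisher exact adjusted p = 0.00106). The Sry-delta consensus was in 2.61% and 4.10% (odds ratio 0.628, Fisher exact adjusted p = 0.0276), and the TATA box in 23.5% and 27.2% (odds ratio 0.825, Fisher exact adjusted p = 0.0276). Higher in members were the CA repeat CACACAC (10.04% and 6.81%), the E-boxes CACATG (10.8% and 7.67%) and CAGCTG (9.39% and 6.21%), the GAF site GAGAGAG (5.40% and 3.50%) and the Scalloped site CATTCC (8.88% and 6.61%). For these 5, the distal optimal summits held fewer sites than their own flanks, for example 3.50% against 6.41% for GAGAGAG. The Forkhead site was at like shares in both groups, 7.12% and 6.94% (Fisher exact adjusted p = 0.927). With 1 peak for each run in both groups, the GAF, Scalloped and TATA differences were not called and the other 6 were. The Sry-delta difference was not called with the 10000 highest peaks per replicate, with an overlap of 50%, over 1000 bp from coding starts or over 1000 bp from optimal peaks (odds ratios from 0.644 to 0.823). The GAF difference was not called without replicate 3 (odds ratio 1.302) or without replicate 4 (1.371), and without replicate 3 the CA repeat (1.31) and TATA (0.908) differences were not called. Over the 11 alternatives the GAF and TATA differences lost their calls in 6 each, Scalloped in 5 and the CA repeat in 2. Each of these was lost with the 10000 highest peaks. The DRE and CAGCTG differences were called in each of the 11 alternatives run, and those of CTCF and CACATG in all but the 10000 highest peaks.

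Against the not shared peaks the same test called 5 motifs higher in members (17.9%) and 1 lower (3.57%). Higher were the DRE (1.24% and 0.515%), the GAF site (5.40% and 3.17%), the CA repeat (10.04% and 7.16%), the Forkhead site (7.12% and 5.11%) and the TATA box (23.5% and 21.2%), with Fisher exact adjusted p from 6.35e-07 for GAF to 0.0243 for TATA. The Snail E-box CAGGTG was lower (5.81% and 8.15%). The not shared peaks had higher GC at the summit, a median of 42.6%, and more coding exons, and the part of either in these differences was not tested.

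A search of all 7-mers within 50 bp of the summits, with no motif assumed, returned a small family. The same McNemar test called 8 higher (0.0977% of those tested) and 3 lower (0.0366%). The highest ratio was that of CAGTGTA, in 78 members (2.68%) against 0.688% of flanks, a ratio of 3.90 (exact McNemar adjusted p = 3.64e-06). CACTGAG was in 2.68% against 0.929% (exact McNemar adjusted p = 0.00016), and CAGTGCA in 106 members (3.65%) against 1.27% (exact McNemar adjusted p = 0.000463). CACAGTG was called in 2.30% of members (exact McNemar adjusted p = 0.0368). AGGGTAT in 2.13% and ACACTGA in 2.34% were called as well (exact McNemar adjusted p = 0.0324 for each). Of the 8, 5 held CAGTG on either strand. With flanks at 1000 bp CAGTGTA was not called (ratio 2.48, exact McNemar adjusted p = 0.137), whereas the next 2 were. With the 10000 highest peaks per replicate, and with the 519 members whose summit windows, but not flanks, were chosen to hold no repeat, 0 were called higher. GGGTATA and ATAGAGA fell under the 2% share set for naming and are named after their values were seen. GGGTATA was in 1.75% of summits against 0.619% of flanks (exact McNemar adjusted p = 0.00385). ATAGAGA was in 1.995% against 0.946% (exact McNemar adjusted p = 0.0342). Neither was called against the left-hand window (exact McNemar adjusted p = 0.281 and 0.602). At distal optimal peaks GGGTATA was in 1.19% of summits and 0.925% of flanks. The called 7-mers with lower shares and at least that share were TATATAA (2.58% and 3.97%) and AATTTAT (4.85% and 6.69%), and TCCCAGA was under it. Among the 2106 highest members 8 were again called higher and 0 lower. Of these, 4 were in both sets, namely the first 3 above and CACAGTG, and the highest ratio was that of CAGTGTA (3.13% against 0.546%, ratio 5.74).

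CAGTG followed by T or C and then A was counted together after these results were seen, so its counts are descriptions with no test. It was in 183 members (6.30%) within 50 bp of the summit and 1.94% of flanks, all 183 in different runs. The 2106 highest members had 7.26%, the 801 lower ones 3.75%, the distal optimal peaks 6.54%, the not shared peaks 4.14%, and the 4736 optimal peaks within 500 bp of coding starts 2.91%. Within 50 bp it was thus seen at strong and weak distal peaks and was near its flank share of 2.50% at promoters. This window leaves out sites farther from the summit. Within 150 bp the shares were 25.6% of distal optimal peaks, 15.5% of members and 11.4% of not shared peaks. A wider count at promoters is not given here. The 183 members with the site within 50 bp lay on every arm, from 32 to 40 on each, and 60.7% were in introns. Of them, 13 also had a Forkhead match within 100 bp.

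These sites had a side. Within 150 bp of the summit 452 members (15.5%) held 529 sites, against 184 members (6.33%) with 195 sites in the equally wide zone 350 to 500 bp away. To the left of the summit 191 sites read on the minus strand and 80 on the plus strand. To the right, 182 read on the plus strand and 76 on the minus strand. In 373 of 529 sites (70.5%) the 5' side of CAGTG therefore faced the summit, as in the Dph4 and Lerp sequences above, and in the outer zone it did so in 55.4%. The 6 bases before the site were T in 47.8% of positions near the summit and 36.6% in the outer zone. The share of sites facing the summit was 74.9% among the 2106 highest members, 78.7% in the distal optimal peaks and 62.8% in the not shared peaks.

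The distance from the summit was less sharp than in the distal optimal peaks. Those had sites in 8.72% of peaks in the 50 bp centred 75 bp to the left and in 7.53% centred 75 bp to the right, but in 3.24% and 4.03% of the 2 central bins. The members had 3.13%, 3.30%, 3.23% and 3.20% in the same 4 bins, with no dip at the centre. Their outer bins, over 400 bp away, had a median of 1.17%. Summits of the 2 replicates lay a median of 77 bp apart at members and 26 bp at distal optimal peaks. The part of this less certain placing in the missing dip was not tested. At an annotated exon start there was 1 site of 198 near member summits. No factor is named for the site here.

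**Figure D5:**
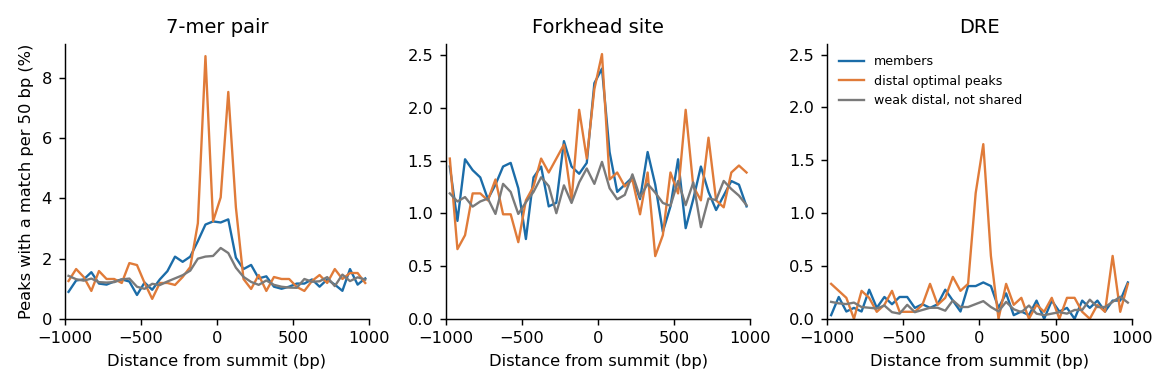
Percent of peaks with a match in each 50 bp bin (y axis, scaled per panel) by distance from the summit in bp (x axis), for CAGTG followed by T or C and A (the 7-mer pair), the Forkhead site and the DRE, in 2907 members, 1513 distal optimal peaks and 14374 not shared peaks. The 7-mer pair forms 2 columns 75 bp from distal optimal summits (8.72% and 7.53%) and a plateau of 3.13% to 3.30% at members.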

How the data were processed

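Peak lists in dm6 coordinates were used for replicates 3 and 4, for both pooled, and for the optimal set. According to the deposited README files, the replicate lists were called from 1 alignment and a control, the pooled list from both, and the optimal set by the irreproducible discovery rate. The deposited signal value (no stated unit) ranked and described peaks, and the deposited −log10 q value, at its maximum for 1029 members, was not used to rank. For caller, aligner, versions and threshold, nothing is given in the sources used here. Read depth is unknown, and intervals cover counting error over peaks only.

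The members, motifs and lists were chosen with earlier results of these data known. Summits were placed on the Release 6 sequence and Ensembl release 115 annotation (FlyBase 6.54) with Python 3.11.15, pandas 2.3.3 and SciPy 1.17.1. Motifs and 7-mers were tested as the text states, at an adjusted p of 0.05, and the code was tested on simulated sequences. Regions are not biological replicates, so p-values describe these peaks. Genes named were those nearest to the 20 highest members (1 is not reported here), up to 4 per list and the 10 with most members; the 7-mers named were in at least 2% of members. Of the listed genes, 7 were not on the 5 arms. Sequence of arm 2R is not printed.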

Additional observations from a re-analysis of the deposited data

How the results depend on the processing

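No paired analysis was possible because the 2 libraries form 1 group. Leaving out 1 replicate gave 5526 to 6247 members, 5 to 6 motifs higher, 0 to 2 lower, 19 to 51 7-mers higher and 14 to 55 lower, against 2907, 2, 2, 8 and 3. With the 10000 highest peaks per replicate there were 883 members and 0 motifs and 0 7-mers were called in either direction, while 2 motifs differed from distal optimal peaks against 9. With the 20000 highest there were 5016 members, 27 7-mers higher and 6 lower. Over 1000 bp from coding starts, 1 motif was lower, 5 7-mers were higher and 1 lower, and over 1000 bp from optimal peaks these were again 1, 5 and 1, with 5 motifs differing from distal optimal peaks. Over 500 bp from all annotated starts, 1 motif and 0 7-mers were lower, and with an overlap of 50%, 1 7-mer was lower. With the highest member of each run, an alternative chosen after seeing the data, 0 motifs and 0 7-mers were lower. With the motif half-window at 50 bp 1 motif was higher and 1 lower, and with the 7-mer half-window at 100 bp 28 7-mers were higher and 5 lower. With flanks at 1000 bp 1 motif and 0 7-mers were lower, and with the left flank 0 motifs and 1 7-mer. The motifs called were not the same ones. With flanks at 1000 bp the lower motif was GGATTA, and TAATTA, the TATA box and the DRE lost their calls. The higher ones were Forkhead, the CA repeat and the Su(Hw) core, and with the left flank they were Forkhead and the Su(Hw) core. Summit windows free of soft-masked repeats left 519 members, with 0 motifs higher, 1 lower, 0 7-mers higher and 24 lower. The flanks were not chosen in this way, so summits and flanks were no longer alike. AATTTAT, for example, fell from 4.85% to 1.54% of summits, while its flank share was 6.69% before and 6.55% after. Calls in either direction under this setting therefore cannot be read against the others. The causes of the changes between settings were not tested.

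The ratio of the TATA box at summits to flanks ran from 0.795 to 1.04 with 1 replicate left out, and turned direction without replicate 3. For the 4 motifs called against flanks and the 9 called against distal optimal peaks, over the settings run, 108 values kept direction and call, 46 kept direction and lost the call, and 1 reversed. The Forkhead ratio ran from 1.41 to 2.03 and lost its call with the 10000 highest peaks and without repeats in the summit window. The DRE was above its flanks in every setting run (2.24 to 7.00) and lost its call in 5. Read depth is unknown. In the main setting the rank limits, at signals of 19.4 in replicate 3 and 22.4 in replicate 4, set what could be shared. They lay above the lowest signals of the replicate lists, 10.8 and 11.4.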
